A study of Mus musculus with 3 samples.

Results

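Transcripts of the Hippo pathway were measured in cells sorted from fetal mouse kidney, for a set of 10 genes: the kinase Stk3, its adaptor Sav1, the kinases Lats1 and Lats2, the coactivators Yap1 and Wwtr1 (which encodes Taz), and the DNA-binding factors Tead1, Tead2, Tead3 and Tead4. Every probe set annotated to exactly 1 of these symbols was taken, which gave 21 of 34945 single-symbol probe sets and 9 of 18193 genes. Stk3 (also called Mst2) had no such probe set in the annotation used and was not analysed here. The cells came from E15.5 kidneys (Theiler stage 23) of CD-1 mice carrying Tg(Meis1-EGFP)FO156Gsat, a transgene that makes green fluorescent protein under the control of Meis1 regulatory sequence, so the sort took whichever cells had the reporter on. There was 1 group of 3 arrays, each hybridised with RNA from a pool of about 20 kidneys of unknown sex. The labels call the cells nephrogenic interstitium, and the series title calls them peripheral blastema. Reporter-negative cells were not analysed here, so no value below is a difference between cell types.

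In the Hippo pathway, the kinases Mst1 and Mst2 bind the adaptor Sav1 and activate Lats1 and Lats2, which act with Mob1 proteins. Lats kinases phosphorylate Yap and Taz, which are then held in the cytoplasm or degraded. Unphosphorylated Yap and Taz enter the nucleus and turn on genes through Tead factors, since neither binds DNA by itself. In the mouse kidney the pathway is known for its part in nephron formation, where loss of Yap from nephron progenitors leaves few nephrons. Arrays measure transcripts and say nothing of the phosphorylation or location of these proteins.

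For each array a background level was set at the 95th percentile over 72 odorant, vomeronasal and trace amine receptor genes, which are made in sensory neurons. The level corresponded to signals of 135, 185 and 168 in replicates 1, 2 and 3. The distance of a log2 signal from this level was tested above 0 with limma, one-sided, and adjusted over all genes or all probe sets by the Benjamini-Hochberg method at 0.05. Where a gene had several probe sets, the brightest on average stood for it. A gene with more probe sets thus had more chances to lie above background. The members had 21 probe sets for 9 genes, all genes 34945 for 18193 and the receptor genes 81 for 72. Shares and medians of members and lists were not matched to all genes for number of probe sets. All 10 markers of the nephrogenic interstitium lay above background, where 57.3% of all genes did. The list was chosen with earlier results of these data known, so this count is no independent evidence of cell type. The markers lay 4.31 to 7.60 log2 units above background, with summed signals of 182500 to 200600 per array. Sums of this kind, here and below, depend on the genes listed and on probe affinity, and give no share of cells. The markers included Foxd1, which marks stromal progenitors, and Meis1, which sorting on the reporter favours. Nothing in the labels ties the pools to different litters, so the p-values measure the spread between these arrays, which may be technical.

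Of the 9 member genes with a value, 8 (88.9%) were above background, where 57.3% of all genes were. Of their 21 probe sets, 16 (76.2%) were above it, where 48.7% of all probe sets were. The exception among genes was Tead4. The member genes had a median distance of 5.69 log2 units, and all genes had one of 1.52. In RNA from a mixed sort, fewer cells that make a transcript and less of it per cell cannot be told apart.

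**Figure D1:**
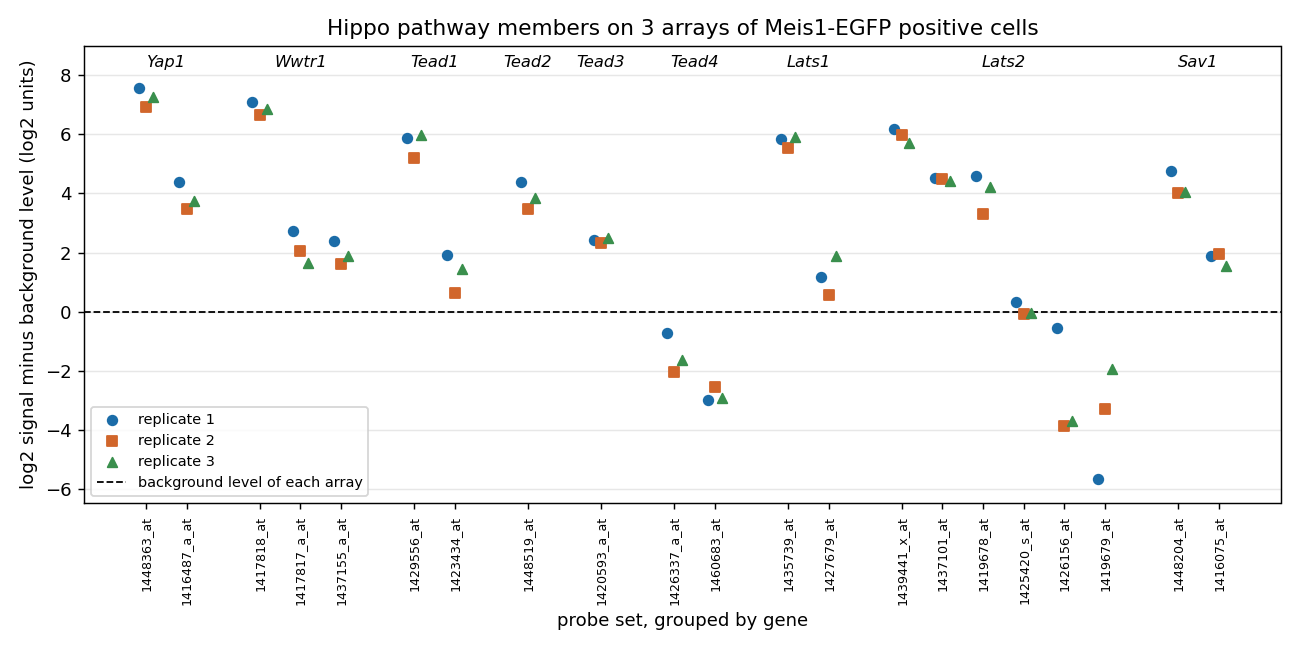
Log2 signal minus the background level of the same array (vertical axis, log2 units) for each of the 21 member probe sets (horizontal axis, grouped by gene), with 1 point per array and a dashed line at the background level. Every point of Yap1, Wwtr1, Tead1, Tead2, Tead3, Lats1 and Sav1 lies above the line, both Tead4 probe sets lie below it on every array, and the 6 Lats2 probe sets lie on both sides.

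Yap1 encodes the coactivator Yap. Its probe set 1448363_at had signals of 25711, 22357 and 26034 in replicates 1, 2 and 3, and 1416487_a_at had 2828, 2050 and 2245. All 6 values exceeded the background level of their array. At the gene level Yap1 lay 7.26 ± 0.23 log2 units above background (SE, n = 3), a signal 153 times the background level (limma adjusted p = 7.78e-07). The second probe set lay 3.87 ± 0.27 above it (SE, n = 3; limma adjusted p = 3.69e-05).

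Wwtr1 encodes Taz, the paralogue of Yap. Probe set 1417818_at had signals of 18656, 18743 and 19383 in replicates 1, 2 and 3, with an SD of 0.03 on the log2 scale as deposited. The other Wwtr1 probe sets, 1417817_a_at and 1437155_a_at, had 895, 759 and 530, and 708, 559 and 618. All 3 probe sets were above background. The gene lay 6.87 ± 0.21 log2 units above it (SE, n = 3; limma adjusted p = 7.78e-07), and the dimmer pair lay 2.14 ± 0.28 and 1.96 ± 0.25 above (SE; limma adjusted p = 0.000637 and 0.000561).

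Of the Tead factors, through which Yap and Taz reach DNA, Tead1, Tead2 and Tead3 were above background and Tead4 was not. Tead1 probe set 1429556_at had signals of 7894, 6833 and 10645 in replicates 1, 2 and 3, and 1423434_at had 510, 286 and 458. Both were above background on every array. Tead1 lay 5.69 ± 0.24 log2 units above it at the gene level (SE, n = 3; limma adjusted p = 1.53e-06), and the dimmer probe set 1.33 ± 0.31 (SE; adjusted p = 0.00754). The call of the dimmer probe set was lost without replicate 1 (1.04, limma adjusted p = 0.051).

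Tead2 is the family member known for early expression in the mouse embryo. Its one probe set, 1448519_at, had signals of 2799, 2033 and 2413 in replicates 1, 2 and 3 and stood 3.89 ± 0.25 log2 units above background (SE, n = 3; limma adjusted p = 8.54e-06). Tead3, known from placenta, also had a single probe set, 1420593_a_at. Its signals were 722, 916 and 937, and it lay 2.40 ± 0.20 log2 units above background (SE, n = 3; limma adjusted p = 2.97e-05). Each was above the level on all 3 arrays.

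Tead4 is required for the trophectoderm of the mouse blastocyst. Its probe set 1426337_a_at had signals of 81.3, 45.2 and 54.2 in replicates 1, 2 and 3, and 1460683_at had 17.1, 31.6 and 22.3. All 6 values were below the background level of their array. The distances were -1.47 ± 0.30 log2 units at the gene level and -2.82 ± 0.22 for the dimmer probe set (SE, n = 3; limma adjusted p = 1.0 for both). A failed probe set would give the same values, so absence of the transcript was not shown. Probe sets of different genes differ in affinity, and the 4 Tead genes were not ranked by level.

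Sav1 is the adaptor that couples the Mst kinases to Lats. Probe set 1448204_at had signals of 3677, 3026 and 2778 in replicates 1, 2 and 3, and 1416075_at had 492, 707 and 495. Both exceeded background on every array. The gene lay 4.28 ± 0.24 log2 units above it (SE, n = 3; limma adjusted p = 4.75e-06) and the dimmer probe set 1.79 ± 0.22 (SE; adjusted p = 0.000449).

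Lats1 is one of the kinases that phosphorylate Yap and Taz. Probe set 1435739_at had signals of 7718, 8595 and 10247 in replicates 1, 2 and 3, and 1427679_at had 302, 271 and 616. Both were above the background level on all arrays. Lats1 lay 5.77 ± 0.21 log2 units above background at the gene level (SE, n = 3; limma adjusted p = 9.62e-07). The dimmer probe set lay 1.20 ± 0.31 above (SE; limma adjusted p = 0.0119), a call lost without replicate 1 (1.21, adjusted p = 0.0802), without replicate 3 (0.86, adjusted p = 0.101) and at the 99th percentile of the receptor genes (0.71, adjusted p = 0.0563).

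Lats2, the second kinase, had 6 probe sets that split evenly, with 3 above background and 3 not above it. The brightest, 1439441_x_at, had signals of 9770, 11695 and 8914 in replicates 1, 2 and 3, and gave a gene distance of 5.96 ± 0.21 log2 units (SE, n = 3; limma adjusted p = 9.19e-07). Its suffix marks a probe set whose probes can bind other transcripts. Leaving out such probe sets moved the gene to 1437101_at, with signals of 3130, 4122 and 3646 and a distance of 4.48 (limma adjusted p = 1.91e-06). Probe set 1419678_at, with 3230, 1813 and 3136, lay 4.03 ± 0.31 above background (SE; limma adjusted p = 6.1e-05).

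The remaining Lats2 probe sets were at or under the background level. Probe set 1425420_s_at had signals of 170, 174 and 163 in replicates 1, 2 and 3, above the level in replicate 1 alone (0.07 ± 0.22 log2 units, SE, n = 3; limma adjusted p = 0.707). Probe set 1426156_at had 91.8, 12.6 and 13.0, and 1419679_at had 2.63, 18.6 and 44.1. These last probe sets were below the level on every array, at -2.71 ± 0.69 and -3.64 ± 0.70 log2 units (SE). With every gene, the receptor genes included, taken as the mean of its probe sets, the background levels were lower (log2 6.88, 7.27 and 7.26, against 7.08, 7.53 and 7.40), and Lats2 lay 1.56 log2 units above them (limma adjusted p = 0.000495), so the gene's distance depended on the probe set more than its call did.

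Such a split was common on these arrays. Of 6779 genes with more than 1 probe set and at least 1 above background, 4470 (65.9%) also had a probe set that was not above it. Among the members, 6 genes met the same condition, and 1 of them, Lats2, was split. For Yap1, Wwtr1, Tead1, Lats1 and Sav1 every probe set was above background.

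The gene starts of members and of target genes are shown next for the short motif that Tead factors are known to bind, GGAATG, or CATTCC on the other strand. RefSeq promoter windows (build GRCm38.p6) were matched by symbol for 7 members, and Tead1, Tead4 and Stk3 had none in the table. In the 250 bases before the start, the motif was found for 4 of these 7, Yap1, Wwtr1, Tead3 and Sav1, and for 3880 of all 27025 genes with a window (14.4%). The 66 bases around it are printed 5′ to 3′ on the strand of the gene, with the motif in capitals and its first base 141, 136, 182 and 106 bases before the start. The Wwtr1 match also lies 170 bases before a second listed start, and Tead3 holds further matches before another of its 3 listed starts.
Yap1, chr9:8004702-8004767, minus strand: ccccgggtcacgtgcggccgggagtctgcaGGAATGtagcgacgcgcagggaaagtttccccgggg
Wwtr1, chr3:57576011-57576076, minus strand: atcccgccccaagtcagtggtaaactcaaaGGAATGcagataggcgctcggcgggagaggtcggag
Tead3, chr17:28350952-28351017, minus strand: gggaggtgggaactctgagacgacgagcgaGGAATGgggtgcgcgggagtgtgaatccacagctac
Sav1, chr12:69987073-69987138, minus strand: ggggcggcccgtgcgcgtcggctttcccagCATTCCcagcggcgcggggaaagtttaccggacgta

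The windows of Tead2, Lats1 and Lats2 held no match in these 250 bases. A match is a run of letters and no measure of binding, which the arrays did not assay.

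The other genes of the pathway were described from 6 lists, which held 67 measured genes outside the members. Of these, 54 (80.6%) were above background, where 57.3% of all genes were, and their median distance was 4.74 log2 units. Some of these genes were valued by a probe set whose suffix marks probes that can bind other transcripts. Among them were Stk4, Wwc2, Vgll3, Csnk1d and Fbxw11. Kinases and kinase adaptors outside the members were above background in 7 of 10 cases, with a median distance of 4.41 log2 units. Stk4, which is Mst1 and the paralogue of Stk3, had signals of 11837, 14257 and 11676 in replicates 1, 2 and 3 and stood 6.28 ± 0.21 log2 units above background (SE, n = 3; limma adjusted p = 8.06e-07). The Lats partners Mob1a and Mob1b lay 7.15 ± 0.21 and 4.02 ± 0.22 above (SE), and Stk38, a kinase related to Lats, 5.90 ± 0.24. Mob1b was called through 1 of 2 probe sets and Stk38 through 1 of 3. Not above background were Taok2 (-2.06 ± 0.22), a kinase upstream of Mst, its relative Taok3 (-0.24 ± 0.21) and Map4k1 (-0.78 ± 0.26), a kinase of blood cells.

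Scaffolds and junction proteins upstream of Lats, or able to hold Yap and Taz outside the nucleus, were above background in 18 of 18 cases, where 57.3% of all genes were, with a median distance of 5.20 log2 units. Nf2 (Merlin), which recruits Lats to the membrane, had signals of 2835, 2348 and 2955 and stood 4.07 ± 0.23 log2 units above background (SE, n = 3; limma adjusted p = 4.99e-06). The scaffolds Wwc2 and Frmd6 lay 5.39 ± 0.21 and 3.83 ± 0.23 above (SE). Wwc1 (Kibra) lay 2.44 ± 0.25 above through 1 of its 4 probe sets, and fell below the level as an average of its probe sets (-0.18) and after leaving out those that can bind other transcripts (-0.50). The polarity gene Crb3, called through 1 of 3 probe sets, also fell below the level as an average (-1.65). Frmd1 had no value.

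Fat4 in the kidney stroma is known to act on neighbouring nephron progenitors. The Fat and Dachsous cadherins were above background with Fjx1 in 5 of 6 cases, where 57.3% of all genes were. Fjx1 was called through 1 of 3 probe sets and lay at -0.85 as their average (limma adjusted p = 1). Fat1 lay 7.95 ± 0.20 log2 units above it, Fat4 7.59 ± 0.20, Fat3 2.23 ± 0.22 and Dchs1, a ligand of Fat4, 1.22 ± 0.30 (SE, n = 3). Fat2 did not pass the test, at -3.44 ± 0.21.

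Vestigial-like proteins bind Teads on a surface that Yap and Taz also use. Vgll3 had signals of 3655, 3279 and 3013 in replicates 1, 2 and 3 and stood 4.36 ± 0.23 log2 units above background (SE, n = 3; limma adjusted p = 3.44e-06). Vgll4, which represses Tead targets, had 287, 224 and 397 and lay 0.87 ± 0.26 above (SE; limma adjusted p = 0.0154). The Vgll4 call was lost without replicate 1 (0.76, limma adjusted p = 0.0969), without replicate 3 (0.68, 0.129) and at the 99th percentile (0.38, 0.202). Vgll1 (-0.64 ± 0.25) and Vgll2 (0.23 ± 0.25) were not above background, though Vgll2 passed at the 90th percentile of the receptor genes (0.58, limma adjusted p = 0.0407).

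Genes for the turnover and cytoplasmic retention of Yap and Taz were above background in 10 of 11 cases, with a median distance of 7.55 log2 units. Of all genes, 57.3% were above background, with a median distance of 1.52. The casein kinases Csnk1d and Csnk1e prime the proteins for destruction. They lay 7.55 ± 0.22 and 3.45 ± 0.27 above background (SE, n = 3), Csnk1e through 1 of 3 probe sets. The ligase subunits Btrc and Fbxw11 lay 3.50 ± 0.24 and 8.08 ± 0.21 above, Btrc through 1 of 5 probe sets and Fbxw11 through 2 of 5. All 6 Ywha genes on the list, whose products bind phosphorylated Yap, were above background. Sfn, the epithelial relative of the Ywha genes, was not (-3.35 ± 0.30).

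**Figure D2:**
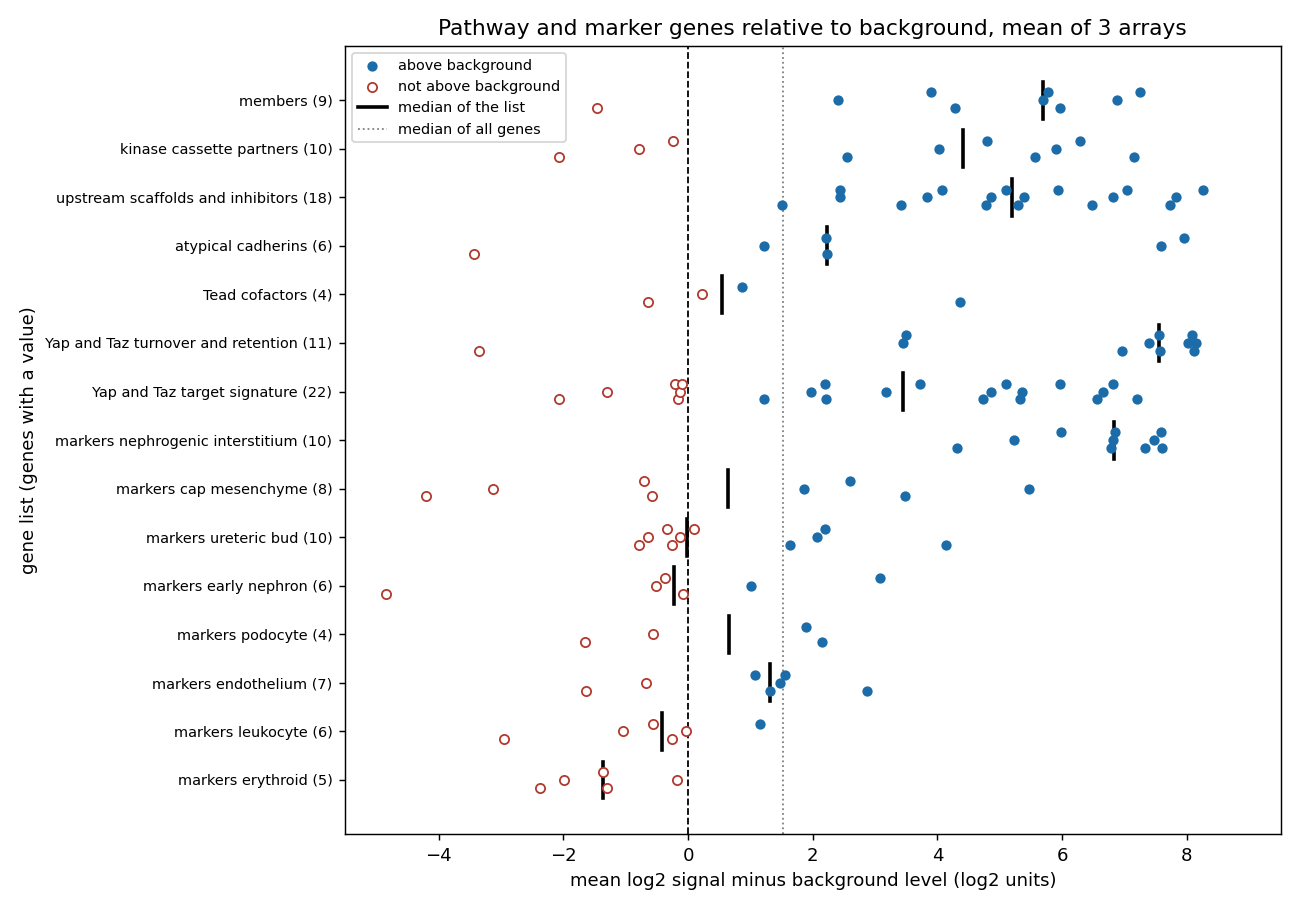
Mean log2 signal minus the background level over 3 arrays (horizontal axis, log2 units) for each measured gene of the pathway and cell type lists (vertical axis, number of genes with a value in brackets), with filled points above background, open points not above it, a bar at each list's median and a dotted line at the median of all genes (1.52). Scaffolds and nephrogenic interstitium markers have no open point, and erythroid markers have no filled one.

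Targets of Yap and Taz were taken from a signature of 22 genes described in human cancer and read here through the mouse orthologues. Lats2, a member, belongs to it. Of the 22, 16 (72.7%) were above background, with a median distance of 3.45 log2 units, where 57.3% of all genes were above it with a median of 1.52. Of the 16, Fjx1 (-0.85) and Arhgef17 (-0.17) fell below the level as averages of their probe sets. Ccn1 (Cyr61), a matricellular protein that is also an immediate early gene, had signals of 18915, 23603 and 29413 in replicates 1, 2 and 3 and stood 7.19 ± 0.21 log2 units above background (SE, n = 3; limma adjusted p = 7.78e-07). Its relative Ccn2 (Ctgf) had 4753, 4040 and 4142 and lay 4.74 ± 0.23 above (SE; limma adjusted p = 2.53e-06). All 3 arrays were far above the level for both genes.

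Amotl2, which is both a target and an inhibitor of Yap, had signals of 6005, 4792 and 5933 and stood 5.10 ± 0.24 log2 units above background (SE, n = 3; limma adjusted p = 2.09e-06). Not above it were Ankrd1, a muscle and stress response gene, with signals of 35.8, 50.9 and 31.1 and a distance of -2.07 ± 0.23, and the transcription factor Foxf2 at -1.31 ± 0.38. The coagulation receptor F3 (-0.20 ± 0.20), the membrane repair gene Myof (-0.15 ± 0.27), Crim1 (-0.12 ± 0.28), which encodes a binder of BMP ligands, and the ectoenzyme gene Nt5e (-0.09 ± 0.26) lay close to the level and did not pass the test. Signals of Myof, Crim1 and Nt5e lay on both sides of the level across the arrays.

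**Figure D3:**
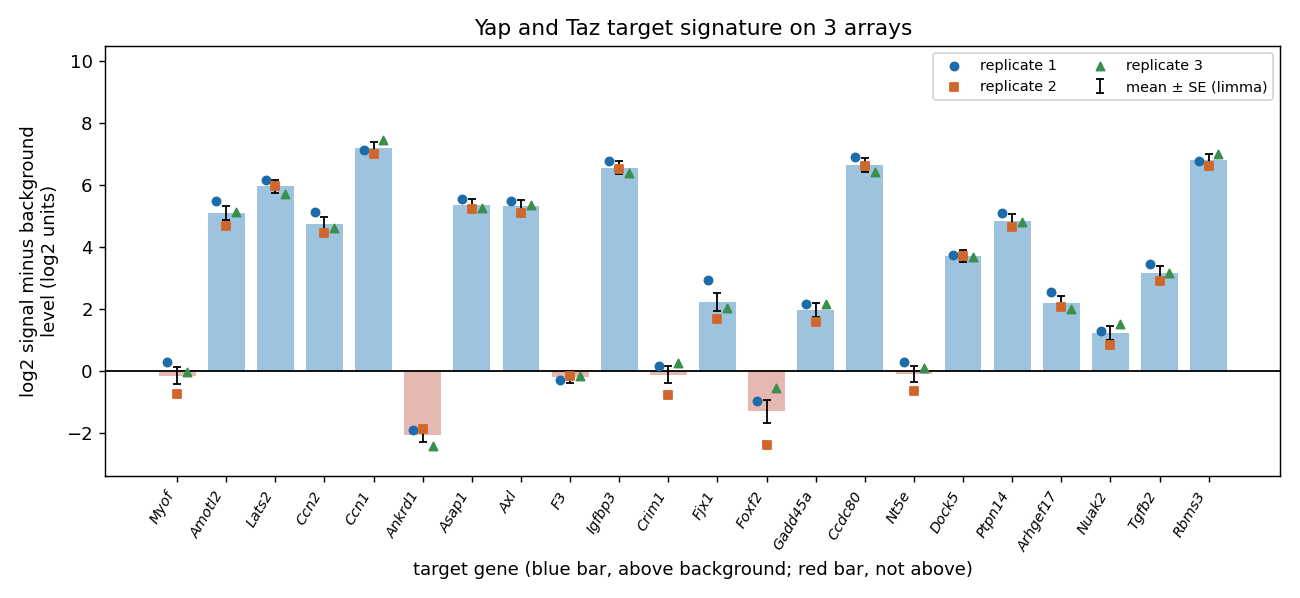
Log2 signal minus the background level (vertical axis, log2 units) for the 22 genes of the Yap and Taz target signature (horizontal axis), with bars at the mean of 3 arrays, error bars for the limma SE and 1 point per array. Ccn1 has the tallest bar at 7.19, and Ankrd1 (-2.07), Foxf2 (-1.31) and F3 (-0.20) are below 0 on every array.

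Promoter windows were matched for 15 of the 22 targets, and 6 of them (40.0%) held the Tead motif in the 250 bases before the start, where 14.4% of all genes did. These were Amotl2, Ccn1, Axl and Ptpn14, above background, and Ankrd1 and Crim1, not above it. The windows of Amotl2 and Ccn1, each with 1 match, and of the Ankrd1 match nearer its start are printed in the same way, to set targets with a signal beside one without. Their first motif bases lie 65, 103 and 123 bases before the start, and Ankrd1 holds a second match 210 bases before it.
Amotl2, chr9:102717709-102717774, plus strand: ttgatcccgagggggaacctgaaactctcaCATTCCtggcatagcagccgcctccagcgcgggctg
Ccn1, chr3:145650053-145650118, minus strand: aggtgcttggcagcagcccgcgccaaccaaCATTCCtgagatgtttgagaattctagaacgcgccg
Ankrd1, chr19:36119932-36119997, minus strand: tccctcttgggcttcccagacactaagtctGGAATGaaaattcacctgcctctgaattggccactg

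A motif match was thus present in target genes on both sides of the background level.

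Since Yap, Taz and Tead genes are used by many cell types, markers of other cells were read beside them. Cap mesenchyme markers were above background in 4 of 8 cases with summed signals of 9790 to 12320 per array. This count and those of the other cell types stand beside 57.3% of all genes above background. The integrin Itga8, with signals of 8347, 7249 and 6060, lay 5.47 ± 0.24 log2 units above it, Eya1 3.47 ± 0.27, Meox1 2.59 ± 0.22 and Six2, the factor of nephron progenitors, 1.86 ± 0.21 (SE, n = 3). Cited1 (-4.20 ± 0.20), Osr1, Tmem100 and Uncx were not above it, and Eya1 fell to -0.29 as an average of its probe sets. Ureteric bud markers were above in 4 of 10 cases (summed signals 4838 to 6082), with Epcam at 4.13 ± 0.24 and Ret at -0.34 ± 0.25. Endothelial markers were above in 5 of 7 (2891 to 3394), with Tek at 2.86 ± 0.20 and Pecam1 at -1.64 ± 0.71.

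Some calls in the other marker lists did not hold under every setting. As above, the counts stand beside 57.3% of all genes above background. Early nephron markers were above background in 2 of 6 cases (summed signals 1934 to 2390), podocyte markers in 2 of 4 (1413 to 1521), leukocyte markers in 1 of 6 (797 to 981, with Csf1r at 1.15 ± 0.20, or 0.26 and no call as an average of its probe sets, and Ptprc at -1.05 ± 0.32) and erythroid markers in 0 of 5 (289 to 511). By limma 0 of these 5 passed at an unadjusted p under 0.05 either, and their mean distances ran from -2.38 to -0.18. In replicate 1 alone, Hbb-y and Alas2 exceeded the level, by 0.65 and 0.47 log2 units. No marker signal was listed at 0. Dll1 of the early nephron list (0.53, limma adjusted p = 0.101) and Kdr of the endothelial list (0.59, adjusted p = 0.0563) lost their calls at the 99th percentile. Synpo of the podocyte list lost its call as an average of its probe sets (0.53, limma adjusted p = 0.0946). The part of these cells in the signals of the members was not tested.

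The spread between the 3 arrays was described after centring each array's log2 signals on its median. Member probe sets above background had a median SD of 0.34 log2 units, where all probe sets above background had one of 0.27, and 10 of the 16 were above that median. Over genes, each by its brightest probe set, the order was the other way, with a median SD of 0.23 for the 8 members above background and of 0.27 for all genes above it. Lats1 probe set 1435739_at had an SD of 0.03, with 0.37% of probe sets above background lower, and its highest centred signal was 1.03 times its lowest. Without centring, the same Lats1 probe set had an SD of 0.21, Tead3 one of 0.21 and Wwtr1 probe set 1417818_at one of 0.03. After centring, Tead3 had an SD of 0.10 and Wwtr1 probe set 1417818_at one of 0.17. At the other end, Wwtr1 probe set 1417817_a_at had an SD of 0.58 with a highest over lowest ratio of 2.21, and the dimmer probe sets of Tead1 (0.51) and Lats1 (0.50) and Lats2 1419678_at (0.51) followed. On the deposited scale, without centring, the medians were 0.22 for members and 0.18 for all probe sets above background, and quantile normalization gave 0.22 for members.

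**Figure D4:**
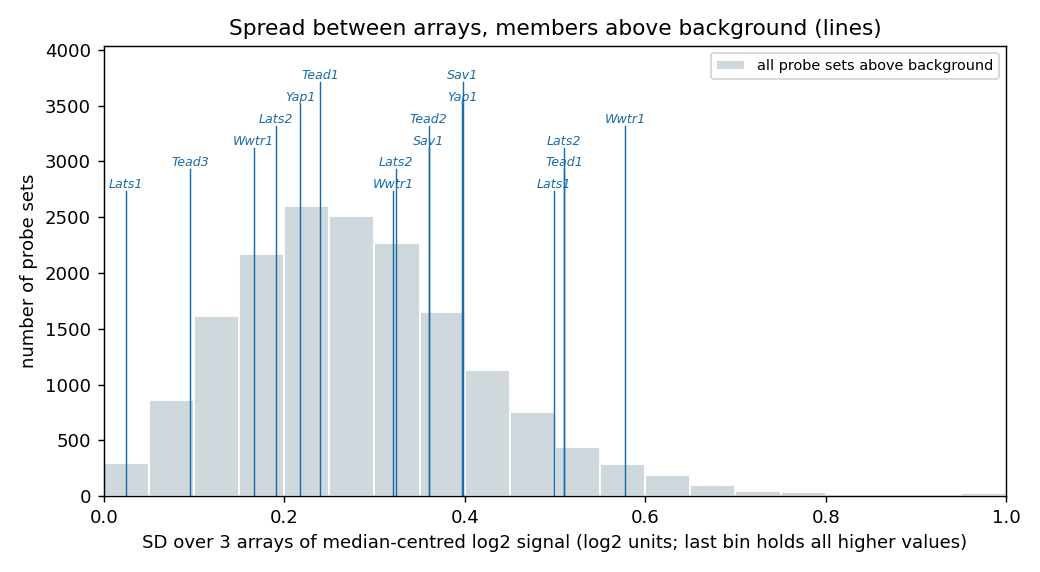
Number of probe sets above background (vertical axis) by SD over 3 arrays of their median-centred log2 signal (horizontal axis, log2 units), with a line for each of the 16 member probe sets above background, named by gene. Member lines run from 0.03 (Lats1) to 0.58 (Wwtr1), and 10 of them stand to the right of the overall median of 0.27.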

How the data were processed

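The authors deposited linear intensity values of 3 single-colour arrays, with 45101 probe sets on each. Per the labels' protocols, kidneys were dissociated in trypsin for 5 min at 37 °C, passed through a 70 micron mesh and sorted, and RNA was amplified in 2 rounds. The submitters' processing notes name GCOS, with its version, algorithm and scaling target not given in the sources used here. Trimmed by 2% at either end, the mean signal came to 1500.01 on all 3 arrays, so they had been scaled to a common mean. Median signals were 143, 162 and 187.

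Log2 was taken without a pseudocount. After setting aside 64 control probe sets, 932 probe sets with several symbols and 9160 with none, 34945 remained. Detection was fitted with limma 3.58.1 in R 4.3.3 (lmFit with an intercept, eBayes; prior df 3.88 for genes and 3.31 for probe sets) and tested on simulated data. Each SE carries the spread of the background levels. The number of arrays limits precision. Genes named are all members, the first 4 above background and all not above it in each pathway list, and defining members of marker lists. Members and lists were chosen with earlier results of these data known. No list was tested as a set. Alternatives covered the background level, normalization, probe set summary, filters, pseudocount and each replicate.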

Additional observations from a re-analysis of the deposited data

Results flagged for a closer look

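One probe set outside the values above, 1421055_at, is annotated to both Xpo4 and Lats2 and was left out for that reason. Its signals were 341, 299 and 500 in replicates 1, 2 and 3, above the background level on all 3 arrays, by 1.34, 0.69 and 1.57 log2 units (mean 1.2). Which of the genes gave this signal was not tested. Groups of 3 arrays are too small for a test of single arrays that stand apart.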

How the results depend on the processing

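The count of member genes above background was 8 under each of 13 alternatives, that of member probe sets lay between 14 and 16 under 12, and that of pathway genes outside the members between 50 and 55 under 13. No member gene changed its call where it had a value. Tead4 was among the dimmest 25% and had none when these were left out. Of 247 values of member probe sets under alternatives, 4 lost their call, all of the dimmer Tead1 and Lats1 probe sets. The median SD of member probe sets ranged from 0.22 to 0.36, with the lowest values under quantile normalization (0.217) and on the deposited scale (0.22), a setting chosen after seeing the data. With the mean over probe sets and levels taken again from it, Wwc1 (-0.18), Crb3 (-1.65), Fjx1 (-0.85), Arhgef17 (-0.17), Eya1 (-0.29), Calb1 (-1.43) and Cdh5 (-0.0405) fell below background, as did Wwc1 without probe sets able to bind other transcripts (-0.50). Each of these genes had at least 1 probe set that was not above background. Fits without 1 array rest on 2 arrays. No paired analysis was possible because there is 1 group.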
